A study of Mus musculus with 12 samples.

Results

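The 10 genes described here encode proteins that store, release, take up or buffer calcium in striated muscle: the calcium pumps Atp2a1 and Atp2a2, the pump inhibitors Sln and Pln, the calsequestrins Casq1 and Casq2, the ryanodine receptors Ryr1 and Ryr3, the cytosolic buffer Pvalb and the junctophilin Jph1. They were chosen by name among the non-control probes of a one-colour Agilent mouse array, which gave 23 of 41174 probes and 10 of 27597 gene names. RNA came from 4 groups of 3 samples each. Myoblasts were proliferating cells of C2C12, an established mouse myoblast line, at about 50% confluence in 10% fetal bovine serum. Myotubes were C2C12 cells kept for 96 hours in 2% horse serum and then freed of most mononucleated cells by trypsin and a short replating. EDL and soleus, described in the labels as a fast glycolytic and a slow oxidative hind limb muscle, came from male CD1 mice aged 3 months, with the muscles of both hind limbs of 1 mouse pooled in each sample. Both cultures are thus 1 cell line without nerve, vessels or connective tissue of its own, whereas each muscle sample holds every cell type of the organ. It is not stated in the labels that the culture samples were grown apart, nor whether an EDL and a soleus sample came from the same mouse, so the p-values measure the spread between these samples, which for the cultures may be technical. The 4 groups share a single estimate of the spread for each probe, so this limit also bears on the p-values between the muscles. The study's title concerns genes of the mitochondrial nucleotide pool, and its design text sets the cultures against adult muscle fibres of different twitch and metabolism.

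In muscle, the sarcoplasmic reticulum holds calcium bound to calsequestrin. A voltage sensor in the transverse tubule opens the ryanodine receptor of the apposed reticulum, the released calcium starts contraction, and the pumps return it to the lumen, which relaxes the fibre. Fast fibres mainly use the pump SERCA1 (Atp2a1), calsequestrin 1 and parvalbumin, while slow fibres and heart use SERCA2 (Atp2a2), with phospholamban or sarcolipin as small membrane inhibitors of the pump.

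Values are normalized log2 signals: the log2 of the processed signal minus the 75th percentile of its array, plus a constant of 9.71. A difference was called when limma's adjusted p was under 0.05 and the absolute log2 difference was at least 1. Levels of different probes are not compared, since probes differ in how brightly they hybridize. The 75th percentile of the processed signal was 1065 to 1649 on the culture arrays and 475.6 to 640.2 on the muscle arrays, and 57.4% to 72.9% of probes were well above background on an array. Scaling to the spiked-in RNA in place of the 75th percentile moved the log2 difference of every probe by -0.37 in myotubes against myoblasts, by -1.03 in EDL and -1.22 in soleus against myotubes, and by -0.19 in soleus against EDL, so differences between muscle and culture are relative to that shift. The median difference over all probes was 0.04, 0.16, 0.10 and -0.04 in the same order. Of the 23 member probes, 17 were well above background on every myoblast array, 20 on every myotube array, 18 on every EDL array and 18 on every soleus array. The filter, which asked that some group have the probe well above background on each of its 3 arrays, kept 22 of them. The probe it left out, A_52_P1156808 of Atp2a2 (accession AK080543), was well above background on 1 soleus array, with a mean level of 4.58 ± 0.54 (SD, n = 3) there.

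Myotubes exceeded myoblasts on at least 1 probe of every member except Pln: the pumps, both calsequestrins, both ryanodine receptors, Pvalb, Jph1 and, by the smallest amount, Sln. Of the 22 probes, 16 were called higher and 0 lower, where 35.2% of all tested probes were called, 18.7% higher and 16.4% lower. At an unadjusted p under 0.05 in limma 2 of the 22 were lower (A_52_P569001 of Atp2a2 and A_51_P256401 of Ryr1). The share of all probes at that threshold is not given here. The groups did not overlap for 21 of the 22, against 68.7% of all probes. In EDL against myotubes, where 46.5% of all probes were called, 12 member probes were called higher (26.5% of all probes) and 8 lower (20.1%), and 21 did not overlap (74.7% of all probes). In soleus against myotubes, where 44.4% of all probes were called, 12 were called higher (24.5%) and 5 lower (19.9%), with 18 not overlapping (73.3%). Both comparisons use the same myotube arrays. The count of members was furthest from the background between the muscles: in soleus against EDL 7 probes were called higher and 6 lower, 13 of 22, where 9.4% of all probes were called, 4.86% higher and 4.54% lower, and 18 did not overlap (43.2% of all probes). The filter favoured some of these calls. Ryr3 A_52_P521605 and A_52_P109916, kept through the myotubes alone, are among the calls in each comparison with myotubes. Sln A_51_P297498, kept through soleus alone, is among the calls higher in soleus than in myotubes and in EDL. Fewer fibres of a type and less RNA per fibre cannot be told apart in whole muscle. No called difference changed sign on any of the 3 slides in these 4 comparisons.

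**Figure D1:**
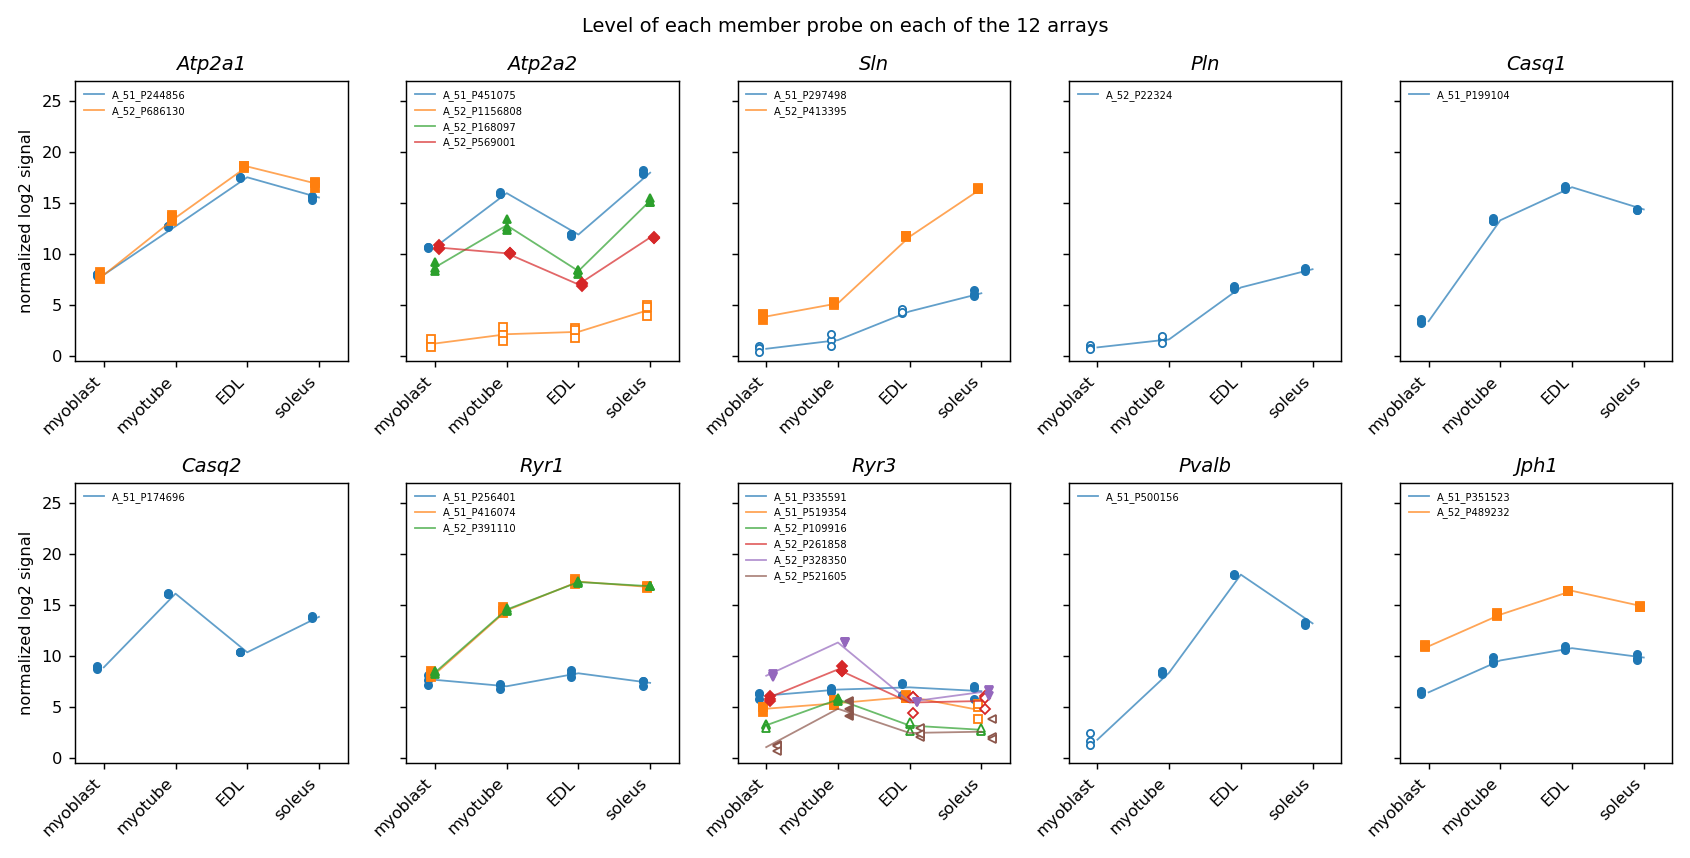
Normalized log2 signal (y axis) of every probe of the 10 genes on each of the 12 arrays, by group (x axis). Points are arrays, lines join group means, and open symbols mark groups in which the probe was not well above background on all 3 arrays. Atp2a1, Casq1 and Pvalb peak in EDL, Sln, Pln and Atp2a2 peak in soleus, and Casq2 peaks in the myotubes.

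**Figure D2:**
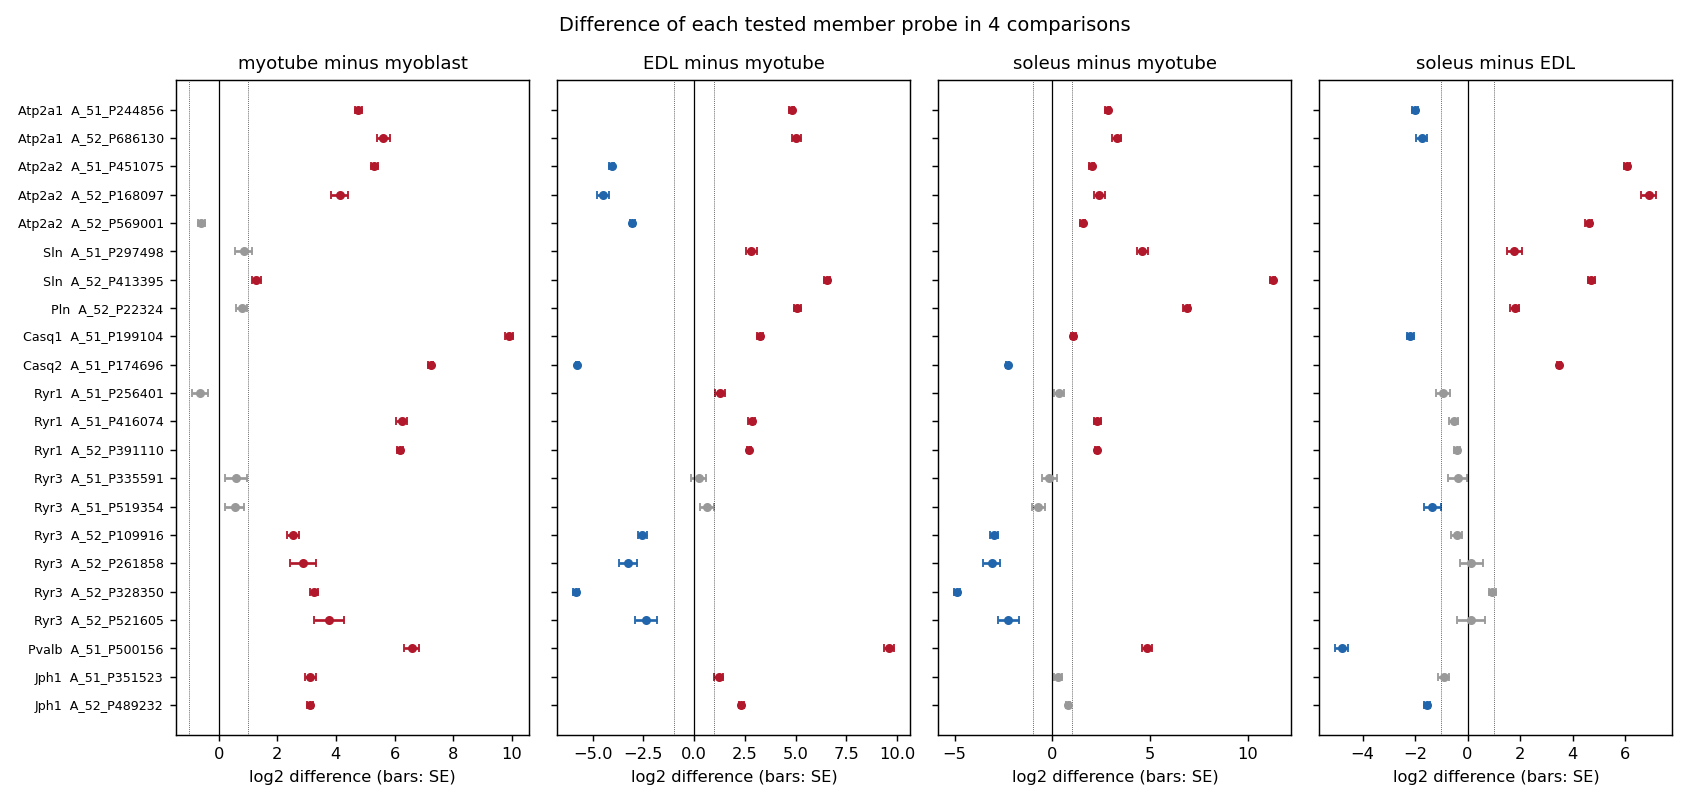
Log2 difference (x axis) with its standard error for each of the 22 tested probes (y axis) in 4 comparisons. Red marks probes called higher, blue probes called lower and grey probes not called, dotted lines stand at a log2 difference of 1 and -1, and each panel has its own x scale. In soleus minus EDL the 3 tested Atp2a2 probes lie between 4.61 and 6.90 and Pvalb lies at -4.78.

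The pump of fast fibres, Atp2a1 (SERCA1), had its highest level in EDL. With probe A_51_P244856 (NM_007504, chr7:126239337-126239396 in build mm8, minus strand) the myoblast arrays stood at 8.02, 7.87 and 8.06, the myotubes at 12.79, 12.65 and 12.79, EDL at 17.47, 17.61 and 17.58, and soleus at 15.34, 15.74 and 15.62. The 4 groups were fully separate, in the order EDL, soleus, myotube, myoblast. Myotubes exceeded myoblasts 27.1-fold (log2 difference 4.76, SE 0.11, adjusted p = 1.95e-10, limma) and EDL exceeded myotubes 28.0-fold (4.81, SE 0.11, adjusted p = 1.17e-10). Soleus exceeded myotubes 7.08-fold and stood below EDL by a log2 difference of -1.98 (SE 0.11, adjusted p = 8e-07), which was -2.13 to -1.87 within the 3 slides. The other probe, A_52_P686130, gave the same order, with differences of 5.62, 5.03, 3.29 and -1.75 (SE 0.22 each) in the 4 comparisons, all called. The last of these was -2.08 and not called (adjusted p = 0.0618) with normexp background correction. The window around the gene's RefSeq start (250 bases before to 50 after it, build GRCm38.p6, chr7:126463024-126463323, minus strand) is shown because this pump was higher in EDL than in soleus, with E-boxes (CANNTG), the motif of myogenic basic helix-loop-helix factors, in capitals:
Atp2a1: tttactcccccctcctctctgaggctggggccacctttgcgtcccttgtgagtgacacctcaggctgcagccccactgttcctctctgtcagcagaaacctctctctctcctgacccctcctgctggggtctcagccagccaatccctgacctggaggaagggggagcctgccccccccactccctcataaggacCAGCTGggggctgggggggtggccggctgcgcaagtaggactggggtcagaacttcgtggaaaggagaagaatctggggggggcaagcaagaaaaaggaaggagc
Its single E-box reads CAGCTG and begins 55 bases before the start.

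Atp2a2 encodes SERCA2, whose transcripts give the muscle pump SERCA2a and the widely expressed SERCA2b by different 3′ ends. The files do not assign the probes to either form. The last of its probes in the direction of transcription, A_51_P451075 (NM_009722, chr5:122714312-122714371 in mm8, minus strand), stood at 10.70, 10.74 and 10.62 in myoblasts, 15.95, 16.12 and 15.92 in myotubes, 11.96, 12.001 and 11.83 in EDL, and 17.83, 18.22 and 17.95 in soleus. EDL lay closer to the myoblasts than to the myotubes and soleus lay above the myotubes, with no overlap between any of the 4 groups. Myotubes exceeded myoblasts 39.6-fold (5.31, SE 0.11, adjusted p = 9.44e-11, limma). EDL was below myotubes by -4.06 (adjusted p = 3.5e-10), soleus above them by 2.01 (adjusted p = 6.58e-08), and soleus exceeded EDL 67.2-fold (6.07, SE 0.11, adjusted p = 9.48e-10). Within the slides the difference between the muscles was 5.87 to 6.22.

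The other 2 tested Atp2a2 probes moved the same way as the first between the muscles, and 1 of them did not follow it in the cultures. A_52_P168097 (NM_009722), 6956 bases before A_51_P451075 in the direction of transcription, was 17.5-fold higher in myotubes than in myoblasts (4.13, SE 0.29), lower in EDL than in myotubes (-4.49), higher in soleus than in myotubes (2.41) and 119-fold higher in soleus than in EDL (6.90, adjusted p = 1.36e-07, limma). In EDL against myoblasts this probe was not called (-0.36, adjusted p = 0.28) and the arrays overlapped, whereas A_51_P451075 was called at 1.24. A_52_P569001 (BC054531), 3146 bases before the first, stood at 10.54, 10.57 and 10.94 in myoblasts and at 10.03, 10.16 and 10.09 in myotubes, a difference of -0.59 (SE 0.12, adjusted p = 0.00149) that was below the size needed for a call. Its 3 EDL arrays stood at 6.87, 7.19 and 7.03 and its soleus arrays at 11.68, 11.64 and 11.59. So it fell in EDL against myotubes (-3.06, adjusted p = 4.6e-09) and rose in soleus (1.55, adjusted p = 9.13e-07), and soleus exceeded EDL 24.4-fold (4.61, SE 0.12, adjusted p = 6.88e-09). With spike-in scaling, the rise in soleus against myotubes was 0.79 for A_51_P451075 (adjusted p = 0.082) and 0.33 for A_52_P569001 (adjusted p = 0.489), so these calls ended.

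Sarcolipin (Sln), a small inhibitor of the pumps, rose in both muscles and most in soleus. Probe A_52_P413395 (NM_025540, chr9:53651904-53651963 in mm8, plus strand) stood at 3.52, 4.02 and 4.12 in myoblasts, 5.04, 5.28 and 5.21 in myotubes, 11.75, 11.68 and 11.76 in EDL, and 16.42, 16.51 and 16.40 in soleus. Each group was separate from the next. The level in soleus was 2460-fold that in myotubes (11.26, SE 0.14, adjusted p = 5.05e-12, limma), the level in EDL 93.6-fold (6.55, adjusted p = 8.22e-11), and soleus exceeded EDL 26.3-fold (4.72, adjusted p = 1.72e-08; 4.64 to 4.83 within the slides). The rise from myoblasts to myotubes was small (1.29, SE 0.14, adjusted p = 2.04e-05) and fell below the size needed for a call with quantile normalization (0.96), spike-in scaling (0.92) and the authors' values (0.93); it turned to -0.84 with normexp background correction (adjusted p = 0.406). A dimmer probe, A_51_P297498 (ENSMUST00000048485), stayed near background on all 6 culture arrays and rose well above it on 1 EDL array. This probe passed the filter through soleus alone, so a peak there was favoured by the filter and adds no support to the direction. On it soleus was at least 6.51-fold above the myotubes and EDL at least 1.89-fold, where a bound takes the lowest signal well above background as the level of the dim group. Both calls ended with normexp (log2 differences of 2.04 and 0.89, adjusted p = 0.139 and 0.59). Soleus exceeded EDL by 1.78 on this probe (SE 0.28, adjusted p = 0.000872), a call that ended with spike-in scaling (1.59, adjusted p = 0.055) and with normexp (1.16, adjusted p = 0.643). In myotubes against myoblasts it gave 0.85 and was not called, except without myotube replicate 3 (1.14).

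Phospholamban (Pln), the inhibitor of SERCA2 in heart and slow muscle, was measured in the muscles alone. Its probe A_52_P22324 (NM_023129, chr10:53033553-53033612 in mm8, plus strand) did not rise well above background on the 6 culture arrays. EDL stood at 6.78, 6.87 and 6.56 and soleus at 8.63, 8.56 and 8.40, with no overlap. EDL was at least 9.65-fold and soleus at least 33.4-fold above the myotubes (adjusted p = 1.9e-09 and 2.63e-10, limma). Soleus exceeded EDL 3.46-fold (1.79, SE 0.18, adjusted p = 3.98e-05; 1.69 to 1.85 within the slides). With normexp the difference between the muscles was 1.33 and that between EDL and myotubes 1.51, neither called (adjusted p = 0.643 and 0.267). The RefSeq window of Pln (GRCm38.p6, chr10:53337436-53337735, plus strand) is shown as the promoter of the slow-side inhibitor, with E-boxes and the TATA box letters TATAAA in capitals:
Pln: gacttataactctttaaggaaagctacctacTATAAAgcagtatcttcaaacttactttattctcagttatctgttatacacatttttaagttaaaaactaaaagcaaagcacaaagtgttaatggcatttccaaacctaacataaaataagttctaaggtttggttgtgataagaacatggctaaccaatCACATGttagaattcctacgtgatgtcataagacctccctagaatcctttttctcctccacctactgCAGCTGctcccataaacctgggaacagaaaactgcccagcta
The E-boxes read CACATG, 59 bases before the start, and CAGCTG, 8 bases after it, and TATAAA begins 219 bases before the start.

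The calsequestrins, the calcium-binding proteins of the lumen, both rose in myotubes and then parted. Casq1, the form of fast fibres (A_51_P199104, NM_009813, chr1:174047146-174048649 in mm8, minus strand), stood at 3.67, 3.35 and 3.25 in myoblasts, 13.54, 13.23 and 13.24 in myotubes, 16.67, 16.41 and 16.65 in EDL, and 14.47, 14.35 and 14.38 in soleus. The groups followed each other without overlap, from EDL to soleus, myotubes and myoblasts. Myotubes exceeded myoblasts 963-fold (9.91, SE 0.13, adjusted p = 8.1e-12, limma), the largest called difference among the members between the cultures. With normexp this difference shrank to 5.805. It remained a call but was no longer the largest, since Casq2 gave 6.825 in that setting. EDL exceeded myotubes 9.45-fold (3.24, adjusted p = 6.88e-09), and soleus stood below EDL by -2.18 (SE 0.13, adjusted p = 1.5e-06; -2.27 to -2.06 within the slides; not called with normexp, at -2.52 and adjusted p = 0.171). The excess of soleus over myotubes was 1.06 (adjusted p = 4.22e-05), and this call ended with quantile normalization (0.91), the authors' values (0.92), normexp (0.59) and spike-in scaling, where it turned to -0.16.

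Casq2, the form of heart and slow fibres (A_51_P174696, NM_009814, chr3:102274965-102275025 in mm8, plus strand), had its highest level in the myotubes. The arrays stood at 8.98, 8.73 and 8.92 in myoblasts, 16.12, 16.07 and 16.15 in myotubes, 10.36, 10.34 and 10.36 in EDL, and 13.77, 13.86 and 13.87 in soleus. Here too the groups did not overlap, and the SD within a group was at most 0.13. Myotubes exceeded myoblasts 151-fold (7.23, SE 0.08, adjusted p = 4.97e-12, limma). Both muscles were below the myotubes, EDL by -5.76 (adjusted p = 7.49e-12) and soleus by -2.28 (adjusted p = 2.61e-09), and soleus exceeded EDL 11.2-fold (3.48, adjusted p = 3.8e-09; 3.41 to 3.52 within the slides). The RefSeq windows of both calsequestrins (GRCm38.p6, Casq1 at chr1:172219846-172220145, minus strand, and Casq2 at chr3:102086165-102086464, plus strand) are shown together because the genes moved in opposite directions between the muscles, with E-boxes and matches to the MEF2 consensus in capitals:
Casq1: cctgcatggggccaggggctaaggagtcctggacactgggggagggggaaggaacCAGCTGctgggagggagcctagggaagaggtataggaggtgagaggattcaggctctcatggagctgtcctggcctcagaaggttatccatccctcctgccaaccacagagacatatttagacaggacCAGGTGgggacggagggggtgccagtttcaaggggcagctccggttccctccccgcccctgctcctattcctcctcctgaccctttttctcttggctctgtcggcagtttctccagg
Casq2: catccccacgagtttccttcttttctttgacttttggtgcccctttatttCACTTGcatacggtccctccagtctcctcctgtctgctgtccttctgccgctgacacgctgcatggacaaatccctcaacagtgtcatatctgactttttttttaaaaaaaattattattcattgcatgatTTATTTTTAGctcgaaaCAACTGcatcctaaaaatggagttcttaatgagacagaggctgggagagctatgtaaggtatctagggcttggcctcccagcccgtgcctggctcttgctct
Casq1 holds CAGCTG 195 bases and CAGGTG 67 bases before its start. Casq2 holds CACTTG 200 bases, CAACTG 52 bases and the MEF2 match TTATTTTTAG 69 bases before its start.

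Ryr1, the release channel of adult skeletal muscle, rose in myotubes and again in both muscles on the 2 probes designed from NM_009109. Probe A_52_P391110 (chr7:28712530-28713228 in mm8, minus strand) stood at 8.56, 8.38 and 8.18 in myoblasts, 14.69, 14.45 and 14.53 in myotubes, 17.26, 17.13 and 17.37 in EDL, and 16.83, 16.89 and 16.82 in soleus. Myotubes exceeded myoblasts 72.5-fold (6.18, SE 0.11, adjusted p = 3.87e-11, limma), EDL exceeded myotubes 6.49-fold (2.70, adjusted p = 7.47e-09) and soleus exceeded them 4.90-fold (2.29, adjusted p = 2.69e-08). EDL and soleus did not overlap, but their difference of -0.40 (adjusted p = 0.0219) was below the size needed for a call. A_51_P416074, 1029 bases upstream, gave 6.24, 2.83, 2.29 and -0.53 in the 4 comparisons. The remaining probe, A_51_P256401 (AK042482), lies 18844 bases upstream of the last one and did not follow them: its levels were 7.19 to 8.11 in myoblasts and 6.74 to 7.21 in myotubes (difference -0.63, adjusted p = 0.059). EDL exceeded myotubes by 1.27 on it (adjusted p = 0.00139), which was 0.25 and not called with spike-in scaling and 0.99 and not called with normexp. Its soleus minus EDL difference of -0.94 (adjusted p = 0.0223) became a call with quantile normalization (-1.02) and the authors' values (-1.04), and without EDL replicate 3, soleus replicate 2 or soleus replicate 3.

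Ryr3, a ryanodine receptor that within skeletal muscle is found mainly during development, had its highest level in myotubes on 4 of its 6 probes. Among these, A_52_P521605 and A_52_P109916 passed the filter through the myotubes alone. The last probe of the gene, A_52_P328350 (NM_177652, chr2:112432613-112432672 in mm8, minus strand), stood at 7.95, 8.00 and 8.22 in myoblasts, 11.24, 11.38 and 11.33 in myotubes, 5.46, 5.52 and 5.52 in EDL, and 6.09, 6.56 and 6.69 in soleus. Both muscles thus lay below the myoblasts. Myotubes exceeded myoblasts 9.58-fold (3.26, SE 0.14, adjusted p = 1.7e-08, limma), and EDL and soleus were below myotubes by -5.81 (adjusted p = 1.72e-10) and -4.87 (adjusted p = 6.41e-10). Against myoblasts the values were -2.55 for EDL and -1.61 for soleus, both called. Soleus exceeded EDL by 0.95 (adjusted p = 0.000704), below the size needed for a call and above it with quantile normalization (1.06), the authors' values (1.07) and without soleus replicate 1 (1.12).

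The direction on A_52_P328350 was shared by the 3 Ryr3 probes that lie 4787, 15310 and 20787 bases upstream of it. A_52_P261858 gave 2.87 in myotubes against myoblasts, -3.25 in EDL and -3.10 in soleus against myotubes. For A_52_P521605 the myotubes were at least 3.67-fold above the myoblasts, at least 1.31-fold above EDL and at least 1.61-fold above soleus, since all arrays of those groups lacked a signal well above background. With A_52_P109916 myotubes exceeded myoblasts by 2.54 and were at least 2.47-fold above EDL and at least 3.04-fold above soleus. These 3 probes are dim, and with normexp none of their calls in those comparisons remained. A_52_P521605 and A_52_P109916 passed the filter through the myotubes alone, so a peak there was favoured by the filter and adds no support to the direction. The most upstream probes, A_51_P335591 (97077 bases) and A_51_P519354 (334616 bases, AK082701), were not called in myotubes against myoblasts (0.59 and 0.54) or in either muscle against myotubes, although A_51_P519354 in soleus became a call with quantile normalization (-1.26), spike-in scaling (-1.93) and the authors' values (-1.25; its sign turned with normexp, at 1.09) and without soleus replicate 3 (-1.004). A_51_P519354 alone was called in soleus against EDL (-1.34, SE 0.33, adjusted p = 0.0125, limma). Its soleus arrays stood at 3.77, 4.95 and 5.23, well above background on 2 of them, and its EDL arrays at 5.87, 5.90 and 6.19. This call ended with spike-in scaling (-1.53, adjusted p = 0.152), with only the compared groups in the fit (-1.34, adjusted p = 0.058) and without soleus replicate 1 (-0.89), and the value turned to 0.53 with normexp.

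Parvalbumin (Pvalb), the soluble calcium buffer of fast fibres, spanned the widest range of the members. Probe A_51_P500156 (NM_013645, chr15:78018472-78018531 in mm8, minus strand) had no myoblast array well above background. It stood at 8.19, 8.51 and 8.38 in myotubes, 17.93, 17.98 and 18.03 in EDL, and 13.06, 13.28 and 13.25 in soleus. Myotubes were at least 42.9-fold above myoblasts (adjusted p = 5.07e-09, limma; 1.28 and not called with normexp, adjusted p = 0.315). EDL exceeded myotubes 788-fold (9.62, SE 0.25, adjusted p = 2.18e-10) and soleus exceeded them 28.6-fold (4.84, adjusted p = 3.38e-08), while soleus stood below EDL by -4.78 (SE 0.25, adjusted p = 4.43e-07; -4.88 to -4.70 within the slides). Against myoblasts EDL was at least 33780-fold and soleus at least 1227-fold higher. RefSeq lists more than 1 start for the gene; the window shown (GRCm38.p6, chr15:78206351-78206650, minus strand) is the one with a match to the MEF2 consensus, TTATTAATAG, in capitals 180 bases before the start:
Pvalb: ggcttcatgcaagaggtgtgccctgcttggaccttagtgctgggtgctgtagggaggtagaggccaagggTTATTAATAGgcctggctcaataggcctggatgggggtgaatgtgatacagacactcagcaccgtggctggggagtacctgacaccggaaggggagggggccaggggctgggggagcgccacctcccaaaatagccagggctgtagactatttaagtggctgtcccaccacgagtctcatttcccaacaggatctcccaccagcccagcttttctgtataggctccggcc
It holds no E-box, whereas the window at the other start holds CATGTG and CATATG.

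Junctophilin 1 (Jph1), which tethers the reticulum to the transverse tubule, rose in myotubes and further in EDL. Probe A_52_P489232 (AK081751, chr1:16980337-16980396 in mm8, minus strand) stood at 10.85, 11.04 and 10.95 in myoblasts, 13.90, 14.26 and 14.01 in myotubes, 16.41, 16.34 and 16.42 in EDL, and 14.81, 14.87 and 14.85 in soleus. Myotubes exceeded myoblasts 8.63-fold (3.11, SE 0.10, adjusted p = 1.79e-09, limma), EDL exceeded myotubes 5.04-fold (2.33, adjusted p = 9.13e-09), and soleus was below EDL by -1.55 (adjusted p = 2.15e-06). Soleus stood above myotubes by 0.79, which was below the size needed for a call and -0.43 with spike-in scaling. On A_51_P351523 (NM_020604), 2358 bases upstream, the differences were 3.13, 1.20, 0.29 and -0.91, of which the first and second were called, and soleus overlapped the myotubes. The last was a call without EDL replicate 2 (-1.01) or soleus replicate 1 (-1.10). The EDL call on this probe ended with spike-in scaling (0.17) and with normexp (1.07, adjusted p = 0.12).

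Against myoblasts, 15 of the 22 probes were called higher and 2 lower in EDL (31.7% and 25.2% of all probes, 56.9% in all), and 15 higher and 1 lower in soleus (29.8% and 25.1%, 54.9% in all). The 2 lower in EDL were Ryr3 A_52_P328350 and Atp2a2 A_52_P569001 (-3.65, SE 0.12, adjusted p = 6.86e-10, limma). Among the higher values that need no bound, the largest was that of Casq1 in EDL (13.15) and that of Sln A_52_P413395 in soleus (12.55), followed there by Casq1 (10.98). Among the higher calls in both muscles is Ryr3 A_52_P521605, whose arrays all lacked a signal well above background in the groups compared and which so carries no measured rise. Sln A_51_P297498, kept through soleus alone, is among the higher calls in soleus, which the filter favoured. The groups did not overlap for 17 probes in EDL (79.9% of all probes) and 18 in soleus (79.2%).

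Within each array, related genes were set against each other by subtracting the log2 signal of one probe from that of the other, a value that a constant shift of a whole array leaves as it is. For each pair the brightest kept probe of each gene was used. Atp2a2 minus Atp2a1 shifted by -9.10 from myotubes to EDL and by -1.28 from myotubes to soleus, so that soleus stood 7.82 above EDL. Casq2 minus Casq1 shifted by -2.68 from myoblasts to myotubes, a value that turned to 1.02 with normexp. From myotubes it shifted by -9.0 to EDL and by -3.34 to soleus, with soleus 5.66 above EDL. For Ryr3 minus Ryr1 the shifts in the same order were -2.92, -8.51 and -7.16, and 1.35 between the muscles.

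Pln minus Sln moved the other way between the muscles, by -2.92 from EDL to soleus, since Sln differed more than Pln. Its 3 shifts that involve a culture are not given, since the level of Pln there has only a bound. Of the other 13 of the 16 shifts computed, 12 had no overlap between the groups and the smallest p that 3 against 3 arrays allow (exact permutation test, two-sided, p = 0.1, adjusted p = 0.114 over the 16), so none could pass 0.05. The exception was Atp2a2 minus Atp2a1 between the cultures (-0.31, exact permutation p = 0.4). The SD of the 3 arrays of a group was at most 0.38.

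**Figure D3:**
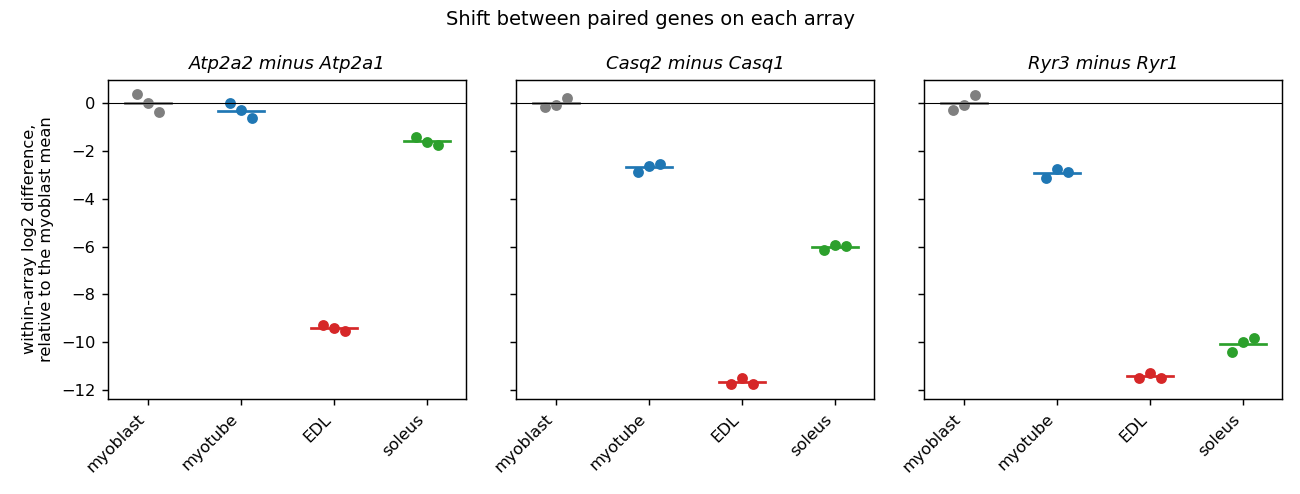
Within-array log2 difference between the genes of a pair (y axis), relative to its mean in the 3 myoblast arrays, for each array by group (x axis). Points are arrays and short lines group means. Atp2a2 minus Atp2a1 and Casq2 minus Casq1 lie lowest in EDL, with soleus 7.82 and 5.66 higher, and Ryr3 minus Ryr1 lies far below the cultures in both muscles.

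RefSeq windows were found for 6 of the 10 genes (7 windows, with 2 for Pvalb). CANNTG occurred in 5 of the 7 and in 72.3% of all 32851 windows of the same length, counting both strands. Its form CAGCTG, which overlaps it, occurred in 3 of the 7 (Atp2a1, Pln and Casq1) and in 16.3% of all windows, TATAAA in 1 of the 7 (Pln) and 13.6%, the MEF2 consensus in 2 of the 7 (Casq2 and Pvalb) and 3.19%, and the CArG box in 0 of the 7 and 1.63%. These matches describe letters in the windows and were not tested against the expression values. The Ryr1 window held none of these motifs.

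Of the other genes of muscle calcium handling, 49 were listed by role; Atp2b4 has no probe on the array by that name, and Calb2 and Ocm did not pass the filter, which left 46. In myotubes against myoblasts 28 of the 46 were called higher (18.7% of all probes) and 4 lower (16.4%). The median log2 difference was 2.24, unchanged with the 3 genes that have only a bound set to it. All 6 genes of the voltage sensor and its coupling proteins and 9 of 11 proteins of the triad junction rose by their brightest probe, while of the 8 other release channels and their binding partners 3 rose and 4 fell. The largest called were triadin (Trdn, 8.29, SE 0.09), which anchors calsequestrin to the ryanodine receptor, and the glycogen-targeting phosphatase subunit Ppp1r3a (at least 80.9-fold). Of the 16 called genes with more than 1 kept probe, 14 had the same sign on all of them; the exceptions, named after their values were seen, were Asph (1 of 4 probes with the sign of the brightest) and Sypl2 (1 of 2). Jph3, the first listed gene without a call, gave 0.39 (SE 0.43).

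In EDL against myotubes 29 of the 46 were called higher (26.5% of all probes) and 4 lower (20.1%), with a median of 1.52. The largest were the sodium-calcium exchanger Slc8a3 (6.38, SE 0.29), the triad membrane protein Sypl2 (6.23, SE 0.14) and Ppp1r3a (5.80, SE 0.43). In soleus 23 were called higher (24.5% of all probes) and 5 lower (19.9%), with a median of 0.94, led by Sypl2 (5.26), Slc8a3 (5.02) and Ppp1r3a (4.48). Cacnb1, the beta subunit of the voltage sensor, was the first listed without a call in both, at 0.05 in EDL and -0.86 in soleus. All kept probes had the same sign for 15 of 17 called genes with several in EDL (not Asph and Slc8a1) and for 13 of 14 in soleus (not Asph).

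Between the muscles 0 of the 46 were called higher in soleus (limma), where 4.86% of all probes were, a count near that share. Called lower were 12 of the 46, against 4.54% of all probes. The median was -0.31 where that of all probes was -0.04. At an unadjusted p under 0.05 in limma the counts were 4 higher and 22 lower. The share of all probes at that threshold is not given here, so these counts have no background to be read against. The lower ones led with the exchanger Slc8a1 (-1.91, SE 0.15, adjusted p = 6.52e-06), the calmodulin-dependent kinase Camk2a (-1.85, SE 0.29, adjusted p = 0.000933) and the calcium sensor of the reticulum Stim2 (-1.80, SE 0.14, adjusted p = 5.78e-06). All kept probes had the same sign for each of the 7 called genes with several. They comprised 2 of the 6 voltage sensor genes, 1 of the 11 junction proteins, 4 of 8 pumps, exchangers and entry genes, 3 of 6 calmodulin and kinase genes, 1 scaffold gene and the single tested buffer, and none of the 8 release channel genes or the 4 lumen proteins. The voltage sensor pore subunit Cacna1s gave -0.66 (adjusted p = 0.00246), below the size needed for a call. The count of 12 was 7 with spike-in scaling and 6 with normexp.

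**Figure D4:**
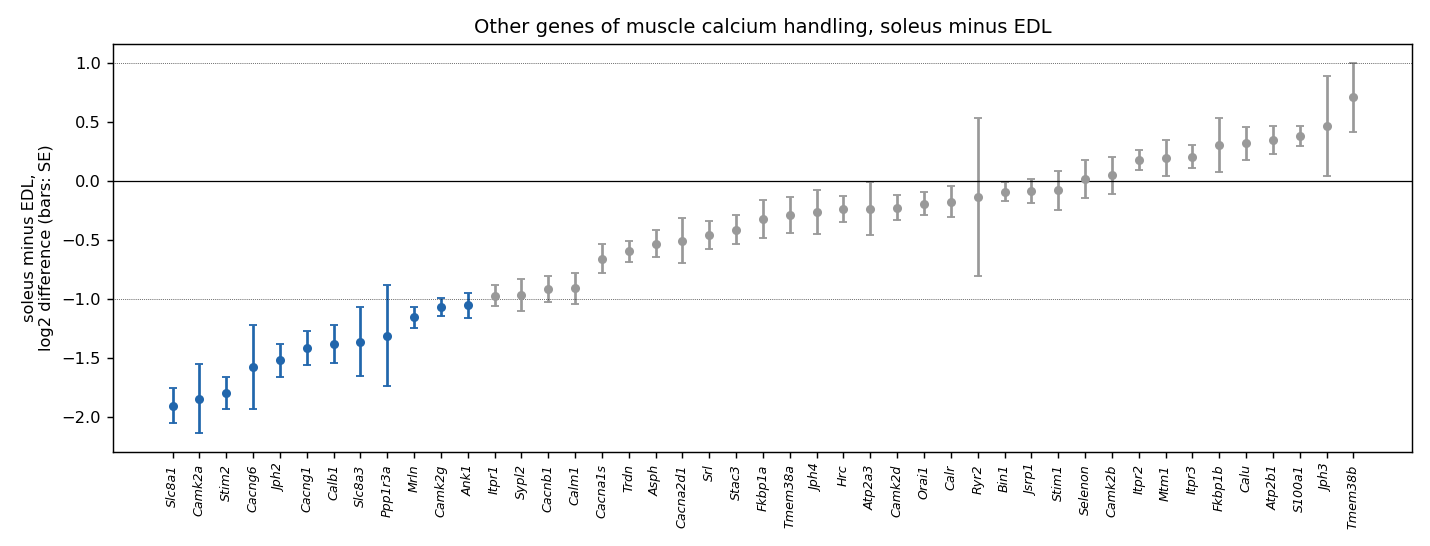
Soleus minus EDL log2 difference (y axis) with its standard error for 45 of the 46 tested genes of the calcium handling list (x axis, sorted by value). Blue marks the 12 genes called lower and grey those not called, and dotted lines stand at 1 and -1. The lowest is Slc8a1 at -1.91, and no gene lies above 1.

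Fibre markers were set beside the labels of the muscles. Of 6 slow fibre genes 5 were called higher in soleus than in EDL, with Myh7 at a mean of 19.61 in soleus and 16.3 in EDL and Myl2 at 18.93 and 13.58. Of 6 fast fibre genes 2 were called lower in soleus. The first listed, Myh4 and Myh1, stood at 17.84 and 18.68 in soleus and at 19 and 19.29 in EDL. The difference of Myh1 was below the size needed for a call. Actn3 stood at 13.74 in soleus and 18.51 in EDL (named with its values known). The fast IIa myosin Myh2 went the other way in mean level (19.45 in soleus and 18.99 in EDL) (named with its values known). Of 6 cardiac genes 1 was called higher in soleus (Myh6, mean 18.43 against 12.15), and the next listed, Nppa, stood at 6.22 in soleus and 6.36 in EDL.

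Other cell types moved with the comparisons of muscle against culture, where Sln, Pln, Pvalb and Atp2a1 rose. Fibre genes moved there too. Of 6 striated muscle genes, 4 were called higher and 1 lower in EDL than in myotubes, and 5 higher in soleus. Of 6 fast fibre genes, 6 were higher in EDL, and 3 higher and 1 lower in soleus. Of 6 slow fibre genes, 1 was higher and 4 lower in EDL, and 3 higher in soleus. Against myotubes, 7 of 7 endothelial, 6 of 6 fibroblast, 6 of 7 macrophage, 4 of 4 tested adipocyte and 5 of 5 Schwann cell genes were called higher in both muscles, as were 6 of 8 smooth muscle and pericyte genes in EDL and 5 of 8 in soleus. The log2 of the summed endothelial signal was 6.18 to 6.51 in myotubes, with Pecam1 and Cdh5 not well above background, and 15.14 to 15.36 in the muscles; for smooth muscle it was 17.43 to 17.53 in myotubes, 18.47 to 18.68 in EDL and 18.37 to 18.44 in soleus. That sum is led by Des and Acta2, which were also bright in the myotubes (16.24 and 16.52). Smooth muscle also expresses Pln and Atp2a2: its markers Myh11 and Acta2 stood at 9.99 and 18.15 in EDL and 10.64 and 17.86 in soleus, and of the 8 genes 0 were called higher and 1 lower in soleus. Of 4 tested adipocyte genes 3 were called higher in soleus than in EDL (log2 of the summed signal 16.79 to 16.99 against 16.29 to 16.39; Adipoq at 9.04 against 7.61 and Fabp4 at 16.81 against 16.3), as were 2 of 5 Schwann cell genes (15.11 to 15.18 against 14.06 to 14.08) and 1 of 6 genes of dividing cells. None of the endothelial, fibroblast or macrophage genes was called between the muscles. Genes of dividing cells were called lower in 6 of 6 cases in myotubes against myoblasts, and the log2 of their summed signal was 16 to 16.2 in myoblasts and 10.3 to 10.56 in myotubes. The part of these cells in the members' differences was not tested.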

How the data were processed

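Total RNA of 12 samples, labelled with Cy3, was read on one-colour Agilent arrays, 3 per group. Per the file headers, the deposited scanner files hold each spot's processed signal, an intensity from which Agilent Feature Extraction (version 10.5.1.1) had subtracted the background, with no scaling between arrays, with flags of 0 or 1 for outlying, saturated or well above background spots, which are given per the file headers too. The authors' deposited values are an intensity on the linear scale, whose normalization between arrays is not given in the sources used here; their array medians were 123 to 282.7, they correlated with the scanner values across probes at r of 0.99756 or more, and they were used only as an alternative.

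Outlier spots (68 to 140 per array) were left out, no spot was saturated, and spots of a probe were averaged on the log2 scale after subtraction of each array's 75th percentile. Of 41174 probes, 28618 were well above background on each of the 3 arrays of some group; these were tested one by one with limma 3.58.1 (in R 4.3.3; data.table package, version 1.17.8), all 12 arrays in the fit (residual degrees of freedom 8, prior 1.84), as two-sided tests with Benjamini-Hochberg adjustment over all tested probes. For the calcium list and the markers a gene was represented by its brightest kept probe. The fit was tested on simulated data. With 3 arrays a group, their number limits the precision.

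Each of the 3 slides held 1 array of every group and gives the replicate number; the first slide has another scan day, and the group cannot be told apart from the position on the slide. Deviations from the group means correlated at 0.211 to 0.619 between arrays of one number (18 pairs) and at -0.445 to 0.175 between other arrays of different groups (36 pairs), so the numbers pair the samples. Number and slide coincide, and the labels do not state a shared mouse or culture. The origin of the pairing was not tested.

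Every probe of the 10 genes is reported. From the calcium list the 3 largest called differences and the first listed gene without a call were named in each of the 4 main comparisons, and from a marker list the first 2. Of the genes so chosen, 1 is counted but not reported here by name. The grouping of the calcium list by role, and other genes named from it or the marker lists, were chosen after their values were seen. The members and all lists were chosen with earlier results of these data known. Probe positions follow the array's own design (build mm8), for which no gene models were used here, so exons were not assigned; probe sequences were not used here, and cross-hybridization between related genes was not tested.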

Additional observations from a re-analysis of the deposited data

Results flagged for a closer look

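EDL and soleus lay on opposite sides of the myotubes for 4 member probes, with every EDL array on one side and every soleus array, or their mean, on the other. The difference between the muscles was tested with limma. For Atp2a2 soleus minus EDL was 6.07 on A_51_P451075, 6.90 on A_52_P168097 and 4.61 on A_52_P569001, all 3 higher in soleus on each of the 3 slides. With spike-in scaling the soleus side of this split was 0.79 and 0.33 on the first and the last of these probes. For Ryr3 A_51_P519354 soleus minus EDL was -1.34, a value that did not pass the call without soleus replicate 1 (-0.89) or with spike-in scaling (-1.53), and the soleus arrays overlapped the myotubes.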

How the results depend on the processing

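With the replicate number as a block the counts of called member probes were the same as without it (16, 20, 17 and 13 in the 4 main comparisons) and the block changed no call of a member or count of the calcium list. Leaving out 1 array at a time gave 16 to 17, 20, 17 to 18 and 13 to 14, and the calcium list in soleus minus EDL 11 to 12. With the probes of a gene averaged, 9, 10, 9 and 8 of the 10 genes were called. Normexp background correction lowered the member counts to 11, 13, 12 and 8, and those of the calcium list from 32, 33, 28 and 12 to 24, 26, 20 and 6 (the last was 7 with spike-in scaling). The cause was not tested.

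Signs turned in these cases. With normexp they were, in myotube minus myoblast, Sln (-1.19 on A_51_P297498 and -0.84 on A_52_P413395), Pln (-1.22) and Ryr3 (-0.59 on A_51_P335591, -0.84 on A_51_P519354, -0.52 on A_52_P109916 and -0.82 on A_52_P521605); in EDL minus myotube Ryr3 A_52_P521605 (0.27); in soleus minus myotube Ryr3 (0.86, 1.09, 0.74 and 1.11 on A_51_P335591, A_51_P519354, A_52_P109916 and A_52_P521605); and in soleus minus EDL Ryr3 (0.55, 0.53 and 0.82 on A_51_P335591, A_51_P519354 and A_52_P109916). With spike-in scaling they were, in EDL minus myotube, Ryr3 A_51_P335591 (-0.81; also -0.11 with quantile normalization and -0.14 with the authors' values) and A_51_P519354 (-0.40); in soleus minus myotube Casq1 (-0.16), Ryr1 A_51_P256401 (-0.88) and Jph1 (-0.93 on A_51_P351523 and -0.43 on A_52_P489232); and in soleus minus EDL Ryr3 A_52_P261858 (-0.044) and A_52_P521605 (-0.068). Leaving out 1 array, Ryr3 A_51_P335591 ranged from -0.40 to 0.24 in soleus minus myotube and from -0.73 to 0.020 in soleus minus EDL, A_52_P261858 from -0.38 to 0.52 and A_52_P521605 from -0.49 to 0.50. In myotube minus myoblast the shift of Atp2a2 minus Atp2a1 was 0.067 with quantile normalization and 0.62 with normexp, and that of Casq2 minus Casq1 was 1.02 with normexp. Between the slides both signs also occurred, for differences that were not called. In soleus minus myotube these were Ryr1 A_51_P256401 (-0.10 to 0.77) and Ryr3 A_51_P335591 (-0.72 to 0.17). In EDL minus myotube it was Ryr3 A_51_P335591 (-0.28 to 0.48). In soleus minus EDL they were Ryr3 A_52_P109916 (-0.94 to 0.27), A_52_P261858 (-0.097 to 0.47) and A_52_P521605 (-0.55 to 0.84). Signal over background limits the dim probes of Sln, Pln and Ryr3, for which bounds are given where no array of a group rose well above background.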
